A study of Mus musculus with 12 samples.

Results

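The comparison is of liver from mice labelled as Otud3 knockout with liver from wild-type (WT) littermates, both taken 30 weeks after diethylnitrosamine (DEN), a liver carcinogen. It rests on 6 RNA-seq libraries of the 12 in the series, 3 labelled knockout and 3 WT, each from 1 mouse. All 6 mice were male C57BL/6 and, per the labels, received a single intraperitoneal dose of 25 mg/kg DEN when 15 days old, so both groups carry the same carcinogen treatment. Which part of Otud3 is missing is not in the labels, nor whether a piece of liver held tumour, or at what time of day it was taken. Of 14944 genes listed in any of the authors' 4 tables, 13931 are in both DEN tables, and these were compared.

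OTUD3 is a deubiquitinase, an enzyme that removes ubiquitin from other proteins and so can slow their breakdown. Its reported substrates include GRP78, the main chaperone of the endoplasmic reticulum (ER). The hepatocyte secretes most plasma proteins, and its ER and cytosol hold large sets of chaperones whose genes are switched on when unfolded protein accumulates, through XBP1 and ATF6 in the ER and through HSF1 in the cytosol.

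Otud3 lies on chromosome 4 between 138891063 and 138914026 (GRCm38.p6), and every library held reads of it. It had 290, 406 and 407 counts in labelled knockout livers 1, 2 and 3, against 560, 431 and 488 counts in WT livers 1, 2 and 3. The 3 knockout values all lay below the 3 WT values, by a narrow margin. On the CPM scale (a share of the library's counts after TMM scaling) the same livers had 9.38, 13.4 and 13.5 CPM in labelled knockout, against 20.2, 12.2 and 16.9 CPM in WT, and the groups overlapped. The difference in mean log2 CPM was -0.43 (two-sided exact permutation test, p = 0.3, adjusted over 2 measures 0.3), and that in log2 TPM, a length-scaled share, was -0.37 (p = 0.3). With 3 livers against 3 this test cannot go below 0.1. Counts over a whole gene do not show whether a deleted exon is absent, so the knockout groups are called by their label throughout.

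The libraries held between 29674680 and 31111765 counts, and 2 of them stood apart. WT 2 lay at 116.6 on the first principal component, which held 75.2% of the variance, while the other 5 libraries lay between -25.6 and -18.3. Of 9985 genes with at least 5 CPM in their highest library, 682 were more than 1 log2 unit higher in WT 2 than in any other library, and 733 were more than 1 unit lower. Labelled knockout 1 stood alone on the second component at 43.8, and 147 genes were more than 1 log2 unit higher there. Calls and gene lists are therefore given with all 6 libraries and without WT 2. A single gene's fold change is given both ways where the results turn on it.

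**Figure D1:**
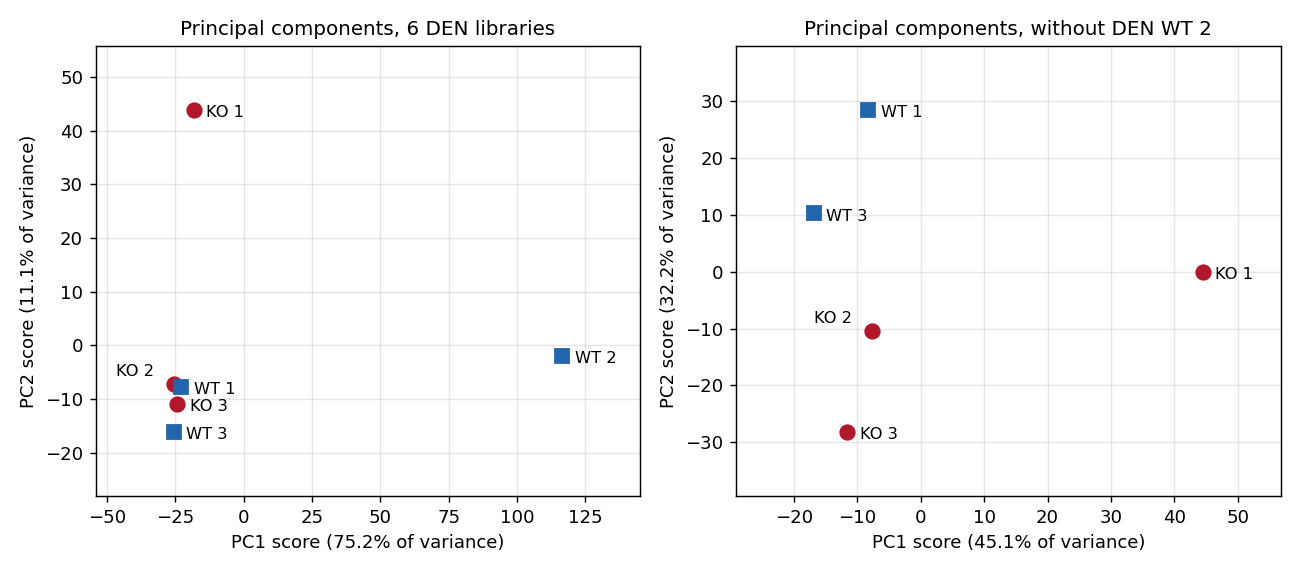
Scores of the DEN libraries on the first and second principal components of log2 CPM, for all 6 libraries (left) and without WT 2 (right), with labelled knockout as circles and WT as squares. WT 2 sits at 116.6 on the first axis of the left plot, and labelled knockout 1 at 44.5 on the first axis of the right plot.

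With all 6 libraries, 0 of 12851 genes tested (0.0%) passed an adjusted p of 0.05 in edgeR's quasi-likelihood test, although 1083 (8.43%) had an unadjusted p under 0.05. The smallest adjusted p was 0.255, shared by Hspb1 and Nfil3. DESeq2 on the same libraries called 215 genes (1.67%), 64 higher (0.498%) and 151 lower (1.18%) in labelled knockout, and limma-voom called 0, or 214 (1.67%) with library quality weights. Without WT 2, edgeR called 76 of 12904 genes (0.589%), of which 32 rose (0.248%) and 44 fell (0.341%) in labelled knockout. With an unadjusted p under 0.05 there were 2216 (17.2%). DESeq2 then called 669 (5.18%), 263 higher (2.04%) and 406 lower (3.15%), and 75 of the 76 were among them. Without WT 2, limma-voom called 64 (0.496%), or 219 (1.7%) with library quality weights. In 73 of the 76 the fold change had the same sign with all 6 libraries. The call count was 0 when WT 1 or WT 3 was also left out, which leaves 1 WT library that is assumed to vary like the others, and it was 188, 1 and 19 without labelled knockout 1, 2 and 3. In what follows, "rose" and "fell" refer to these 76 genes.

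Heat-shock chaperones were the list with the most edgeR calls without WT 2. The list is mostly cytosolic and also holds the mitochondrial pair Hspd1 and Hspe1. Of its 20 genes, 7 fell without WT 2 (0.341% of all genes did) and none rose (0.248% of all genes did). The fold changes of all 20 were negative (44.8% of all genes were). Their median was -0.90 on the log2 scale, against 0.03 over all genes tested. With all 6 libraries 19 of 20 were lower (51.7% of all genes were), with a median of -0.89 against -0.01 for all genes, and edgeR called none of them. Under DESeq2, 14 fell with all 6 libraries (1.18% of all genes were called lower) and 17 without WT 2 (3.15%). In 16 of the 20, all 3 labelled knockout livers lay below all 3 WT livers, where 11.6% of all genes tested did so. Without WT 2 this held for 18, against 19.2% of all genes. Its 7 edgeR calls became 8, 1 and 2 without labelled knockout 1, 2 and 3. Over all genes the calls then numbered 188, 1 and 19. With WT 1 or WT 3 also left out, 1 WT library remained, and the list's median log2 fold change was -0.74 or -1.03.

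Hspb1 (chromosome 5, 135887919 to 135889563), a small heat-shock protein that holds unfolding proteins in solution, had 31.1, 38.1 and 28.6 CPM in labelled knockout livers, against 112, 101 and 100 CPM in WT livers. The groups did not overlap, and WT 2 lay with the other WT livers. Its log2 fold change was -1.69 ± 0.13 (SE) without WT 2 (edgeR adjusted p = 0.0299) and -1.68 ± 0.14 with all 6 libraries (edgeR adjusted p = 0.255, DESeq2 adjusted p = 6.66e-18). It was the 1 gene still called when labelled knockout 2 was left out too.

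Bag3, a co-chaperone that steers damaged proteins into autophagy, had 75.2, 72.8 and 59.2 CPM in labelled knockout livers, against 185, 81.8 and 151 CPM in WT livers. WT 2 was nearest to the knockout livers here. The log2 fold change was -1.26 ± 0.14 without WT 2 (edgeR adjusted p = 0.032) and -1.01 ± 0.31 with it. Hspa4l, an HSP110-family protein that reloads HSP70, had 16.6, 15.7 and 13.8 CPM in labelled knockout livers, against 42.0, 35.8 and 32.0 CPM in WT livers, with no overlap. Its fold change on the log2 scale was -1.25 without WT 2 (edgeR adjusted p = 0.032) and -1.25 with it (edgeR adjusted p = 0.311).

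The other genes that fell were Dnajb1 and Dnaja1, HSP40 proteins that deliver clients to HSP70, Stip1, the adaptor between HSP70 and HSP90, and Hspa8, the constitutive HSP70. Hspa8 had 1394, 1587 and 1351 CPM in labelled knockout livers against 2986, 3015 and 2432 CPM in WT livers. Their log2 fold changes without WT 2 lay between -0.94 (Dnajb1) and -0.69 (Dnaja1). For Dnaja1, WT 2 stood at 353 CPM, within the labelled knockout range of 344 to 357 CPM and away from WT 1 and 3 at 604 and 532 CPM.

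Other members with large fold changes did not pass in edgeR. Hspa1b, the inducible HSP70, had 66.4, 74.2 and 52.4 CPM in labelled knockout livers, against 329, 182 and 189 CPM in WT livers, a log2 fold change of -1.995 ± 0.27 without WT 2 (edgeR adjusted p = 0.0641) and -1.86 ± 0.29 with it (edgeR adjusted p = 0.311). Reads of Hspa1b and its near-identical neighbour Hspa1a may be split between the copies, and Hspa1a had a log2 fold change of -1.68 ± 0.30. Hsph1, another HSP110 protein, had 84.2, 85.9 and 59.1 CPM in labelled knockout livers, against 277, 216 and 192 CPM in WT livers. Neither Hspa1b nor Hsph1 passed the edgeR threshold, and for both the groups did not overlap. Hsf1, the gene of the factor that drives this response, had 17.9, 17.7 and 15.8 CPM in labelled knockout livers, against 17.8, 21.2 and 18.6 CPM in WT livers, and did not pass (log2 fold change -0.08 ± 0.10 without WT 2).

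**Figure D2:**
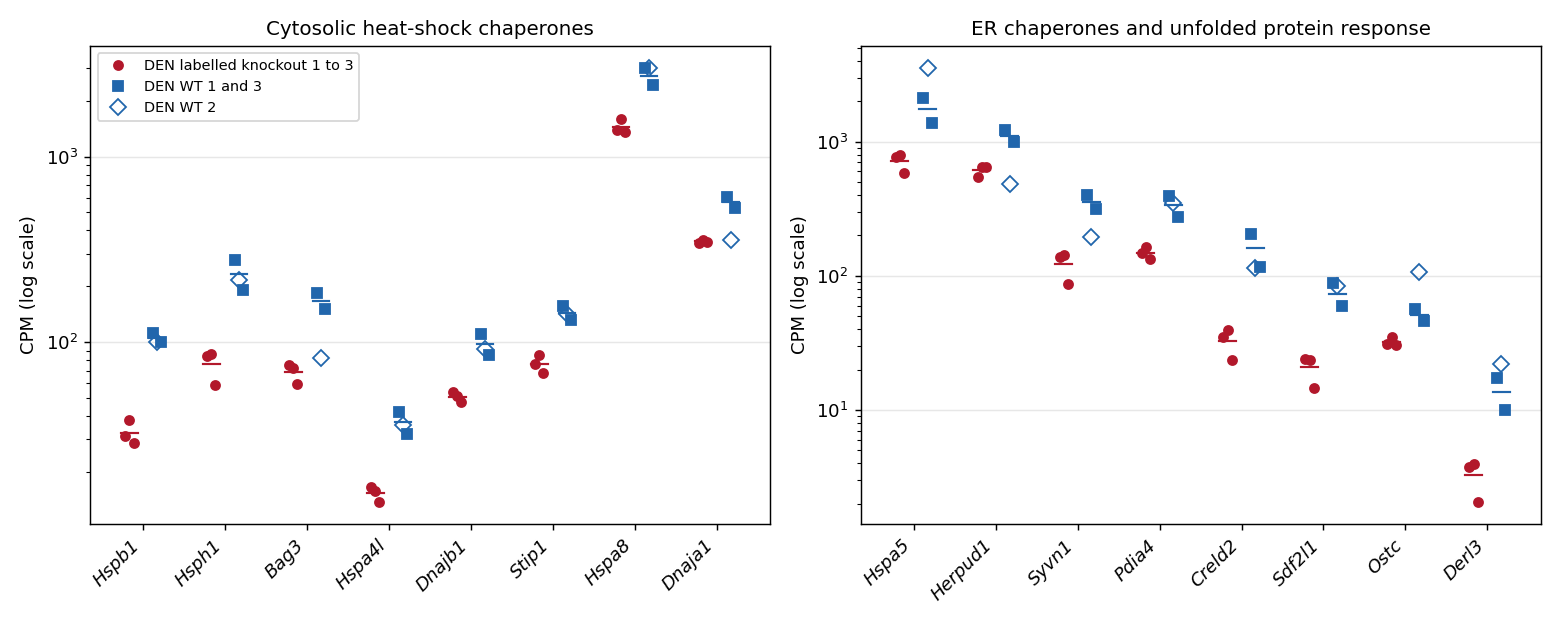
CPM on a log axis of 8 cytosolic heat-shock chaperone genes (left) and 8 ER chaperone and unfolded protein response genes (right), 1 point per liver. Labelled knockout livers are circles, WT 1 and 3 squares and WT 2 an open diamond, and lines mark the mean of the circles and of the squares. Labelled knockout livers lie below WT 1 and 3 for all 16 genes, and WT 2 is at 81.8 CPM for Bag3 and 481 CPM for Herpud1, close to the labelled knockout livers.

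Outside that list, 2 further genes tied to protein folding stress fell. Zfand2a, an arsenite-inducible partner of the proteasome, had 16.8, 16.4 and 16.0 CPM in labelled knockout livers, against 30.2, 34.5 and 25.0 CPM in WT livers. Its log2 fold change was -0.74 ± 0.10 without WT 2 (edgeR adjusted p = 0.0426) and -0.87 ± 0.14 with it (edgeR adjusted p = 0.311). Ahsa2, a relative of the HSP90 activator Ahsa1, had a log2 fold change of -0.81 ± 0.12 without WT 2 (edgeR adjusted p = 0.0453) and -0.73 ± 0.15 with it (edgeR adjusted p = 0.439). Both were picked out after their values were seen.

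Genes of the ER chaperones and the unfolded protein response were lower in nearly every case, without a single edgeR call. Of 30 listed genes, 29 were lower with all 6 libraries (median log2 fold change -0.69) and 28 without WT 2 (median -0.59). All 3 labelled knockout livers lay below all 3 WT livers for 24 of them, against 11.6% of all genes. DESeq2 called 14 lower with all 6 libraries (1.18% of all genes were) and 21 without WT 2 (3.15% of all genes), and none higher. The list's summed level was 7112, 7313 and 6577 CPM in labelled knockout livers, against 12680, 14309 and 9812 CPM in WT livers, so WT 3 was the nearest of the WT livers.

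Hspa5 (chromosome 2, 34772090 to 34776529), which encodes the ER chaperone GRP78, had 763, 795 and 586 CPM in labelled knockout livers, against 2129, 3566 and 1378 CPM in WT livers. The groups did not overlap, and the WT livers ranged more widely. The log2 fold change was -1.72 ± 0.40 with all 6 libraries (edgeR adjusted p = 0.449, DESeq2 adjusted p = 0.00146) and -1.28 ± 0.22 without WT 2 (edgeR adjusted p = 0.0643, DESeq2 adjusted p = 1.28e-07).

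Creld2 (chromosome 15, 88819646 to 88826681), a secreted ER stress protein with disulfide isomerase activity, had 34.9, 39.5 and 23.6 CPM in labelled knockout livers, against 207, 114 and 116 CPM in WT livers. This was the largest change of the list without WT 2, at -2.29 ± 0.33 (edgeR adjusted p = 0.0643), and no WT liver came near the knockout livers. Sdf2l1, an ER co-chaperone, had 24.1, 23.8 and 14.6 CPM in labelled knockout livers, against 87.9, 84.6 and 59.3 CPM in WT livers. Pdia4, a disulfide isomerase, had 149, 165 and 134 CPM in labelled knockout livers, against 396, 351 and 273 CPM in WT livers. Its edgeR adjusted p of 0.0554 without WT 2 was close to the threshold.

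For some genes of the list WT 2 departed from the other WT livers. Herpud1, a scaffold of the machinery that disposes of misfolded ER protein, had 541, 646 and 643 CPM in labelled knockout livers, against 1215, 481 and 1001 CPM in WT livers, so WT 2 lay below all labelled knockout livers. Syvn1, its ubiquitin ligase, had 137, 142 and 87.5 CPM in labelled knockout livers, against 400, 196 and 316 CPM in WT livers, with WT 2 the lowest of the WT livers. Ddit3, which encodes the stress factor CHOP, was listed with the integrated stress response (ATF4 and CHOP targets). It had 13.2, 10.1 and 9.98 CPM in labelled knockout livers, against 23.8, 258 and 16.98 CPM in WT livers. WT 2 was far above every other liver for Ddit3, and the log2 fold change was -3.16 ± 1.12 with it and -0.86 ± 0.19 without it (edgeR adjusted p = 0.566 and 0.0921). The integrated stress response list did not keep its direction. Of its 20 genes tested, 15 were lower with all 6 libraries (51.7% of all genes were) and 5 without WT 2 (44.8% of all genes). Its median log2 fold changes were -0.395 and 0.06.

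Without WT 2, Xbp1 and Atf6, the genes of the upstream factors, differed less. Xbp1 had 224, 185 and 148 CPM in labelled knockout livers, against 301, 236 and 211 CPM in WT livers, and the groups overlapped. Atf6 had 60.9, 60.2 and 62.9 CPM in labelled knockout livers, against 76.2, 136 and 66.4 CPM in WT livers. For Atf6 the groups did not overlap, and WT 2 was highest. It did not pass (log2 fold change -0.20 ± 0.08 without WT 2, edgeR adjusted p = 0.273). XBP1 is activated by splicing and ATF6 by cleavage, neither of which a gene-level count records.

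Many ER chaperone promoters hold the ER stress element, a site of ATF6. It was taken as CCAAT and CCACG with 9 bases of any kind between them, and was searched on both strands in the 250 bases before the start of each gene (RefSeq, GRCm38.p6). It was found in 9 of the 24 listed ER genes with a window (37.5%), against 0.175% of the 10292 tested genes with a window. The list was chosen by function, so this share does not bear on the difference between the groups. Of the 33 genes that fell and had a window, 1 (3.03%) held the element. The promoters of Hspa5, Hsp90b1 and Creld2 are shown because their genes were lower in labelled knockout and hold 1, 2 and 1 matches; capitals mark the matches. They lie at chr2:34771840-34772089 (plus strand), chr10:86705445-86705694 (minus strand) and chr15:88819396-88819645 (plus strand).
Hspa5: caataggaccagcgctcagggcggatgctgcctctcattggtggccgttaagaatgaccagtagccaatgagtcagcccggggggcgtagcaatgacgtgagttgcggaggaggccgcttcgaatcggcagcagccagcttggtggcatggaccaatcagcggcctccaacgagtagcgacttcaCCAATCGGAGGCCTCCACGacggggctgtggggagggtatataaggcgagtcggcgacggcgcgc
Hsp90b1: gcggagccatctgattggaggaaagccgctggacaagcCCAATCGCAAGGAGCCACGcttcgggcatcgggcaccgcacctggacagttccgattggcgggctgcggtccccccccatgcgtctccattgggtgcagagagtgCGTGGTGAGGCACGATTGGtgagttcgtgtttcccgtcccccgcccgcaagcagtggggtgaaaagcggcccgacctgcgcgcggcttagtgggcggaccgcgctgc
Creld2: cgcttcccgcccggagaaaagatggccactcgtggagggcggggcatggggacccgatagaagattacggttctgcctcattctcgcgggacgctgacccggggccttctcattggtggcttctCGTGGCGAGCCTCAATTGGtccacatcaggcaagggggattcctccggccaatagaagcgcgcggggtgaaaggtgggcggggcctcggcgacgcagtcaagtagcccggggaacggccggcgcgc
Hsp90b1, the ER member of the HSP90 family, had 654, 656 and 582 CPM in labelled knockout livers, against 1195, 1236 and 831 CPM in WT livers. Calr and Canx, the lectin chaperones of glycoproteins, also hold the element, and their log2 fold changes without WT 2 were -0.28 ± 0.12 and -0.29 ± 0.13, neither past the threshold. A match is a run of letters, and binding was not measured.

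The single Creld2 match is shared. Alg12, whose enzyme adds mannose to the sugar chain built for N-glycoproteins, starts on the opposite strand, and its own window (chr15:88819319-88819568) holds the same match. Alg12 had 6.79, 9.01 and 7.30 CPM in labelled knockout livers, against 16.7, 18.4 and 16.8 CPM in WT livers, without overlap. It fell, with a log2 fold change of -1.11 ± 0.14 without WT 2 (edgeR adjusted p = 0.0426) and -1.17 ± 0.15 with it.

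The heat shock element was taken as GAA, TTC and GAA with 2 bases of any kind between neighbours. Searched the same way, matches were found in 2 of the 15 listed chaperone genes with a window, Hspe1 and Hspd1, against 0.418% of tested genes. These encode the HSP10 and HSP60 pair of the mitochondrion and start back to back, so they share 2 overlapping matches. The Hspe1 promoter (chr1:55087898-55088147, plus strand) is shown for that shared site, with both matches in capitals.
Hspe1: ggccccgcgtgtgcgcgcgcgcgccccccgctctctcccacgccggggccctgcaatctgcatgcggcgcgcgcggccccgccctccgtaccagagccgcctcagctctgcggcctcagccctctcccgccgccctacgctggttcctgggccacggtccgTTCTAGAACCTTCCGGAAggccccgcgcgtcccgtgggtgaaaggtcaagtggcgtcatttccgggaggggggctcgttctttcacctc
Hspe1 had 120, 111 and 125 CPM in labelled knockout livers, against 175, 182 and 150 CPM in WT livers, with a log2 fold change of -0.44 ± 0.10 without WT 2 (edgeR adjusted p = 0.0909). Hspd1 had 442, 474 and 472 CPM in labelled knockout livers, against 669, 654 and 570 CPM in WT livers. None of the 33 genes that fell and had a window held a match to these exact letters.

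Several further genes that fell act along the secretory path. They belong to no list and were picked out after their values were seen. Gmppb, the catalytic subunit of the enzyme that makes GDP-mannose, had 12.2, 14.7 and 10.9 CPM in labelled knockout livers, against 34.2, 41.6 and 30.5 CPM in WT livers. Its log2 fold change was -1.34 ± 0.14 without WT 2 (edgeR adjusted p = 0.0299), and that of Gmppa, the regulatory subunit, was -0.53 ± 0.07 (edgeR adjusted p = 0.0426). With all 6 libraries they were -1.49 ± 0.17 and -0.58 ± 0.09 (edgeR adjusted p = 0.311 for both Gmppb and Gmppa).

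Tmed3, a cargo receptor between ER and Golgi, had 15.2, 16.4 and 12.5 CPM in labelled knockout livers, against 34.1, 43.2 and 29.9 CPM in WT livers. Srprb, a subunit of the receptor that docks ribosomes at the ER, had 25.2, 26.6 and 21.9 CPM in labelled knockout livers, against 44.5, 64.7 and 42.6 CPM in WT livers. In both, the 3 WT livers lay above the knockout livers, and the log2 fold changes were -1.11 ± 0.13 and -0.81 ± 0.10 without WT 2, and -1.28 ± 0.18 and -1.04 ± 0.19 with it. Ube2g2, a ubiquitin-conjugating enzyme of ER protein disposal, had a narrow range among WT livers. It had 31.5, 34.0 and 29.8 CPM in labelled knockout livers, against 52.0, 50.6 and 51.1 CPM in WT livers.

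Gfpt1, the first enzyme of the hexosamine pathway, had 19.7, 21.7 and 16.99 CPM in labelled knockout livers, against 43.4, 100 and 35.0 CPM in WT livers, with WT 2 highest. Sec22b, a fusion protein of ER vesicles, and Mesd, the chaperone of LDL-receptor family proteins, fell by 0.52 and 0.59 on the log2 scale without WT 2 (edgeR adjusted p = 0.0479 and 0.0426). Bet1l, a fusion protein of the Golgi, fell by 0.59 as well, but WT 2 stood at 18.1 CPM, below all labelled knockout livers.

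Clock genes changed in both directions when WT 2 was left out. Of 20 listed clock genes tested, Dbp rose (0.248% of all genes did) and Arntl, Nfil3 and Cry1 fell (0.341% of all genes did), and 16 did not pass. With all 6 libraries edgeR called 0 of the 20 and DESeq2 called 2, both lower (1.18% of all genes were called lower). On the same 6 libraries, limma-voom with library quality weights called 6 of the 20, 2 higher and 4 lower (1.67% of all genes were called). The 4 calls without WT 2 became 0 when labelled knockout 2, WT 1 or WT 3 was also left out, and 1 without labelled knockout 3. Arntl (chromosome 7, 113178471 to 113314126) encodes BMAL1, which switches on the clock's output genes. It had 1.003, 0.924 and 1.19 CPM in labelled knockout livers, against 4.296, 1.47 and 3.12 CPM in WT livers. WT 2 was nearest to the knockout livers, and the log2 fold change was -1.81 ± 0.25 without it (edgeR adjusted p = 0.0426) and -1.50 ± 0.43 with it.

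Nfil3, a repressor of the genes that DBP activates, had 14.5, 15.4 and 16.5 CPM in labelled knockout livers, against 52.3, 39.2 and 40.9 CPM in WT livers. The groups were far apart, and its log2 fold change was -1.58 ± 0.12 without WT 2 (edgeR adjusted p = 0.0299) and -1.51 ± 0.14 with it (edgeR adjusted p = 0.255). Dbp ran the other way, with 129, 136 and 165 CPM in labelled knockout livers against 58.5, 140 and 73.0 CPM in WT livers. WT 2 lay among the knockout livers, and the log2 fold change was 1.14 ± 0.15 without it (edgeR adjusted p = 0.0426) and 0.66 ± 0.35 with it. Cry1, a repressor of BMAL1, had 11.97, 12.3 and 12.2 CPM in labelled knockout livers, against 22.8, 13.9 and 19.9 CPM in WT livers.

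Per2 had 63.1, 62.9 and 62.3 CPM in labelled knockout livers, against 84.4, 89.96 and 80.3 CPM in WT livers, and did not pass in edgeR (adjusted p = 0.0658 without WT 2). Nr1d1, the gene of the repressor REV-ERB alpha and among the most strongly cycling liver genes, had 60.3, 63.2 and 69.2 CPM in labelled knockout livers, against 59.9, 41.7 and 61.0 CPM in WT livers. Its log2 fold change without WT 2 was 0.10 ± 0.08.

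Fkbp5, a co-chaperone of the glucocorticoid receptor and itself induced by glucocorticoids, had 30.0, 46.1 and 39.1 CPM in labelled knockout livers, against 107, 81.8 and 105 CPM in WT livers. It fell, with a log2 fold change of -1.45 ± 0.17 without WT 2 (edgeR adjusted p = 0.0426) and -1.35 ± 0.20 with it. The list of glucocorticoid and fasting genes that holds it did not move as a whole: of 24 tested without WT 2, G6pc rose, Fkbp5 fell, and the median log2 fold change was -0.0028. Cirbp, the cold-inducible RNA-binding protein, rose, with 15.1, 14.6 and 15.5 CPM in labelled knockout livers against 8.92, 13.2 and 9.84 CPM in WT livers. Clock, glucocorticoid and heat-shock genes in liver vary over the day, and the labels give no time of collection. A difference in collection time and the knockout label cannot be told apart here.

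**Figure D3:**
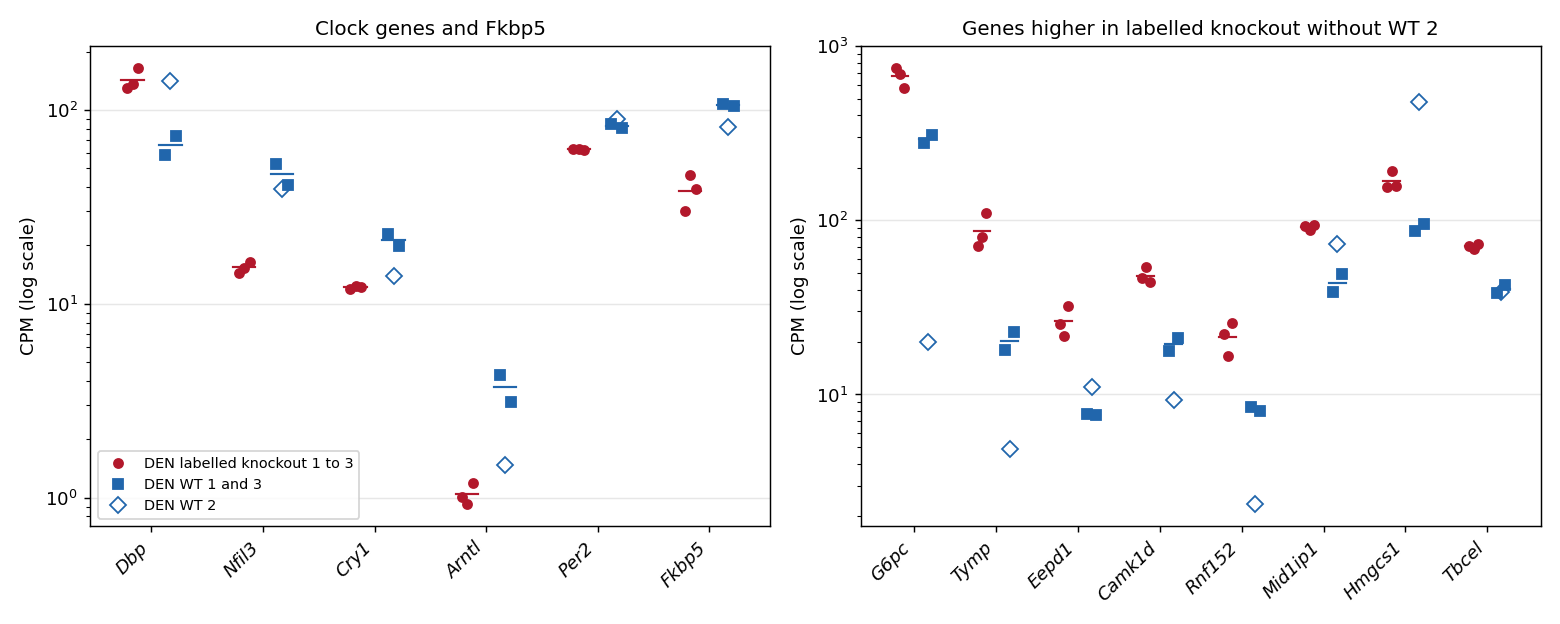
CPM on a log axis of 5 clock genes and Fkbp5 (left) and of 8 genes that rose in labelled knockout without WT 2 (right), 1 point per liver, with symbols as in the plot of chaperone genes. WT 2 lies among or beyond the labelled knockout livers for Dbp (140 CPM) and Hmgcs1 (478 CPM), and far below all others for G6pc (20.1 CPM).

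Of the 32 genes that rose, Tymp (chromosome 15, 89371631 to 89377036), thymidine phosphorylase, had the largest change without WT 2, with 71.0, 80.5 and 110 CPM in labelled knockout livers against 17.9, 4.85 and 22.8 CPM in WT livers. The groups did not overlap, and the log2 fold change was 2.11 ± 0.23 without WT 2 (edgeR adjusted p = 0.0426) and 2.53 ± 0.57 with it. Eepd1, a nuclease with a role at stalled replication forks, had 25.5, 21.6 and 32.4 CPM in labelled knockout livers, against 7.69, 11.1 and 7.62 CPM in WT livers. The log2 fold change was 1.80 ± 0.18 without WT 2 (edgeR adjusted p = 0.0315) and 1.59 ± 0.23 with it.

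G6pc, glucose-6-phosphatase, which releases glucose from the liver, had 752, 689 and 576 CPM in labelled knockout livers, against 278, 20.1 and 308 CPM in WT livers. All WT livers were lower, WT 2 by far the most, and the log2 fold change was 1.21 ± 0.14 without WT 2 (edgeR adjusted p = 0.0374) and 1.73 ± 0.89 with it (edgeR adjusted p = 0.614). Pfkfb1, which makes and degrades the main activator of glycolysis, fell, with 31.5, 31.2 and 38.1 CPM in labelled knockout livers against 56.3, 44.5 and 62.5 CPM in WT livers. Camk1d, a calcium-dependent kinase, had 46.6, 53.7 and 44.4 CPM in labelled knockout livers, against 17.8, 9.28 and 21.2 CPM in WT livers. Rnf152, a lysosomal ubiquitin ligase, rose by a log2 fold change of 1.396 ± 0.19 without WT 2 (edgeR adjusted p = 0.0467), and the value with it was 1.78 ± 0.49 (edgeR adjusted p = 0.467).

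In lipid synthesis, Mid1ip1, a partner that activates acetyl-CoA carboxylase, had 92.3, 87.7 and 93.4 CPM in labelled knockout livers, against 39.0, 73.6 and 48.9 CPM in WT livers, and rose. Hmgcs1, an early enzyme of cholesterol synthesis, had 156, 192 and 157 CPM in labelled knockout livers, against 86.5, 478 and 95.0 CPM in WT livers. WT 2 was highest of all, so its log2 fold change was 0.90 ± 0.12 without WT 2 (edgeR adjusted p = 0.0426) and -0.39 ± 0.70 with it. Ank3, which encodes the membrane scaffold ankyrin-G, did likewise, with 17.2, 16.4 and 18.0 CPM in labelled knockout livers against 9.31, 45.5 and 7.62 CPM in WT livers. Srebf1, the gene of the main factor of fatty acid synthesis, had 337, 419 and 404 CPM in labelled knockout livers, against 131, 275 and 239 CPM in WT livers. It did not pass in edgeR (log2 fold change 1.08 ± 0.28 without WT 2, adjusted p = 0.153).

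Tbcel, which encodes a protein related to tubulin cofactor E, had a narrow range in both groups. It had 71.2, 68.7 and 73.4 CPM in labelled knockout livers, against 38.1, 38.6 and 42.3 CPM in WT livers. Its log2 fold change was 0.84 with and without WT 2 (edgeR adjusted p = 0.311 and 0.0299). Egln3, an oxygen-dependent prolyl hydroxylase acting on HIF, rose, with 18.6, 21.1 and 21.3 CPM in labelled knockout livers against 11.9, 9.54 and 11.1 CPM in WT livers. Nr2f2, the nuclear receptor COUP-TFII, and Tnfrsf1b, a receptor for TNF, also rose, by log2 fold changes of 0.68 ± 0.09 and 0.76 ± 0.07 without WT 2. With it the values were 0.79 ± 0.15 and 1.04 ± 0.32.

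Of the remaining genes that fell, Cyp26b1, an enzyme that degrades retinoic acid, had the largest change without WT 2, at -2.01 ± 0.19 (edgeR adjusted p = 0.0299), and -1.44 ± 1.26 with it (edgeR adjusted p = 0.703). It had 4.63, 3.33 and 2.95 CPM in labelled knockout livers, against 14.9, 0.113 and 14.7 CPM in WT livers, so WT 2 was lowest of all. Serpine2, a protease inhibitor, was also lowest in WT 2, at 1.27 CPM. Srm and Odc1, enzymes of polyamine synthesis, fell by 0.78 and 0.61 on the log2 scale without WT 2 (edgeR adjusted p = 0.0426 and 0.0453), and their values with it were -0.90 and -0.81 (edgeR adjusted p = 0.311 and 0.449). For both, all 3 WT livers lay above the knockout livers.

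Of the 6 reported OTUD3 substrates in the list, Hspa5 included, 4 were lower without WT 2 and none passed in edgeR. Actn4, an actin crosslinker, had 101, 124 and 122 CPM in labelled knockout livers, against 126, 183 and 119 CPM in WT livers, and the groups overlapped. The 45 other deubiquitinase genes tested had a median log2 fold change of -0.01 without WT 2, with 0 edgeR calls. OTUD3 acts on proteins, which these data do not measure.

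For many gene groups the outcome turned on WT 2. The oncofetal and liver tumour markers had a median log2 fold change of -1.11 with all 6 libraries and 0.19 without WT 2. Afp, the fetal albumin-like protein, had 1.84, 0.957 and 4.61 CPM in labelled knockout livers, against 1.19, 63.6 and 2.11 CPM in WT livers, so 1 WT liver set the difference. Genes of S phase and mitosis had a median of -0.80 with all 6 libraries and -0.04 without WT 2, and Mki67 had 1.52, 1.02 and 1.53 CPM in labelled knockout livers, against 1.59, 5.73 and 0.832 CPM in WT livers. In 8 of the 30 genes tested, all 3 labelled knockout livers lay below all 3 WT livers (11.6% of all genes did so). Without WT 2 this also held for 8, against 19.2% of all genes. Among them was Birc5, a mitotic survivin, with 1.197, 1.29 and 1.33 CPM in labelled knockout livers against 2.71, 3.22 and 2.46 CPM in WT livers. Birc5 did not pass in edgeR (adjusted p = 0.0874 without WT 2).

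Pericentral hepatocyte genes were higher in 19 of 21 cases with all 6 libraries, with a median of 0.66. Without WT 2 the median was 0.15, and 16 of 21 were still higher (7128 of 12904 genes tested were). DESeq2 then called 2 of them higher (2.04% of all genes were), and edgeR called 0. Cyp2e1, a pericentral drug-metabolising enzyme, had 7739, 7986 and 8826 CPM in labelled knockout livers, against 8358, 77.8 and 8913 CPM in WT livers. Glul, glutamine synthetase of the innermost pericentral cells, had 1223, 1188 and 1205 CPM in labelled knockout livers, against 983, 36.4 and 1068 CPM in WT livers. In both genes WT 2 alone was far below all other livers. Cyp2a4, an enzyme of the female liver pattern, was the reverse, with 28.5, 10.9 and 142 CPM in labelled knockout livers and 47.1, 11790 and 120 CPM in WT livers. In bulk tissue, fewer cells of a type and less RNA per cell cannot be told apart.

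Some groups changed sign. Nuclear genes of oxidative phosphorylation were higher in 33 of 36 cases with all 6 libraries (median 0.12) and lower in 33 of 36 without WT 2 (median -0.09), and WT 2 was the lowest liver for all 36. Matrix and stellate cell genes were lower in 25 of 37 cases with all 6 libraries (median -0.30), and lower in 1 of 37 without WT 2 (median 0.21), with 0 edgeR calls in either. Col1a1 had 6.18, 7.62 and 3.58 CPM in labelled knockout livers, against 4.08, 92.0 and 3.29 CPM in WT livers.

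**Figure D4:**
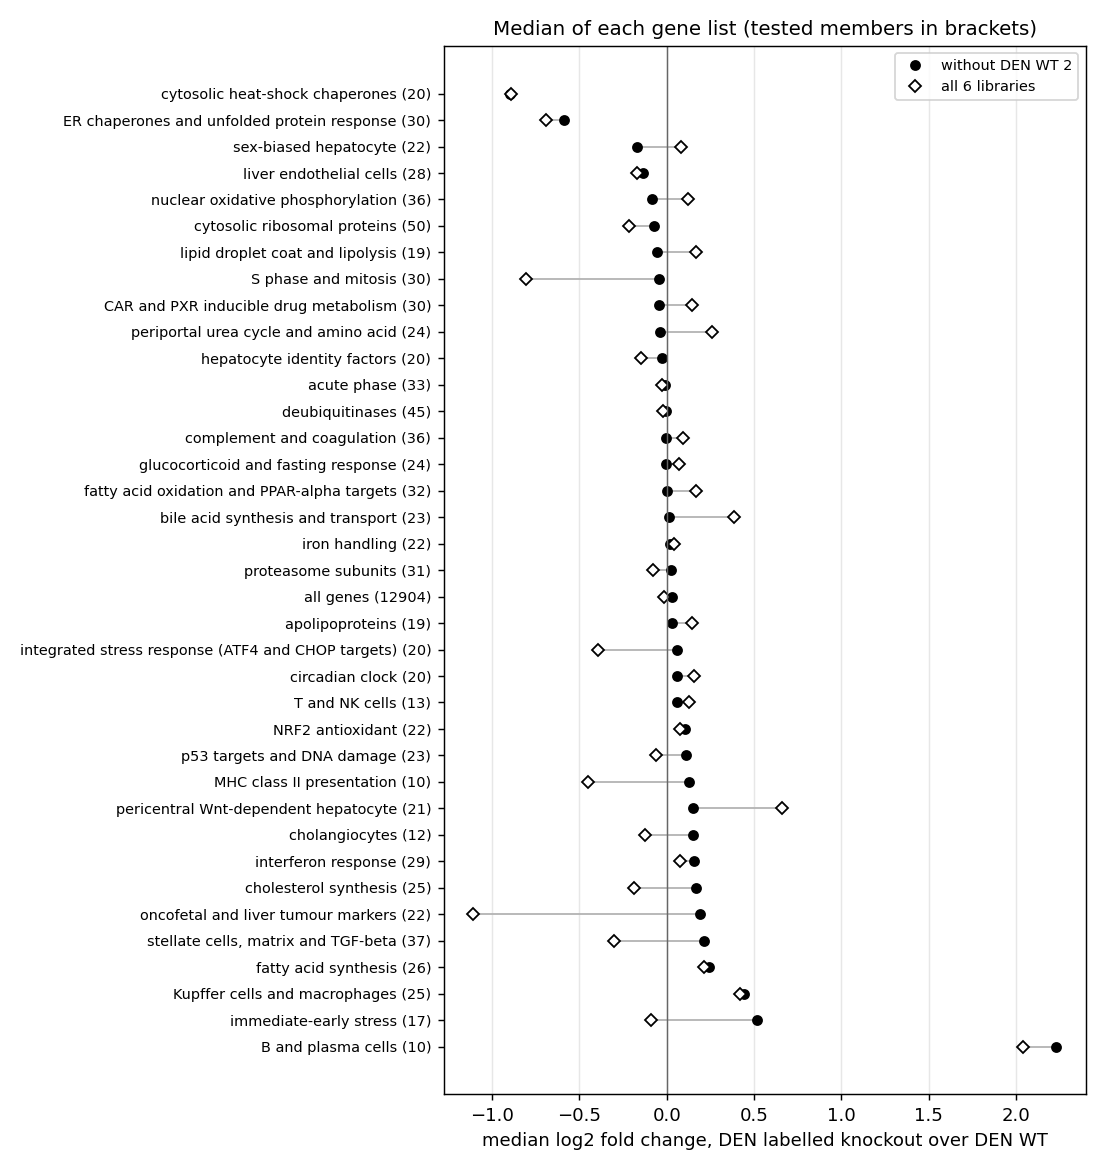
Median log2 fold change of labelled knockout over WT for each gene list with at least 10 members tested, with all 6 libraries (open diamonds) and without WT 2 (filled circles). The list named cytosolic heat-shock chaperones (-0.89 and -0.90) and the ER chaperones (-0.69 and -0.59) keep their place, while the oncofetal markers lie at -1.11 and 0.19. Other lists keep theirs too, among them B and plasma cells (2.04 and 2.23) and macrophages (0.42 and 0.44). Both of these sum highest in labelled knockout 1.

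Genes of B cells, macrophages, neutrophils, and T and NK cells were highest mostly in labelled knockout 1. The 14 measured B and plasma cell genes summed to 76.6, 7.16 and 11.3 CPM in labelled knockout livers, against 6.82, 11.3 and 7.03 CPM in WT livers, and all 14 were highest in labelled knockout 1. The 16 measured T and NK genes summed to 32.1, 18.5 and 19.8 CPM in labelled knockout, against 21.7, 17.2 and 24.2 CPM in WT. Of these 16, 11 were highest in labelled knockout 1. The macrophage list summed to 1814, 607 and 547 CPM in labelled knockout livers, against 780, 498 and 619 CPM in WT livers. Marco, a macrophage scavenger receptor, had 286, 5.54 and 3.08 CPM in labelled knockout livers, against 7.54, 0.226 and 15.3 CPM in WT livers. Clec4f, a receptor of resident Kupffer cells, did not share this pattern, with 65.0, 74.8 and 65.0 CPM in labelled knockout livers against 112, 16.7 and 72.2 CPM in WT livers. No gene of these lists passed the edgeR threshold, and MHC class II genes summed highest in WT 2. Without labelled knockout 1, 76 of the 76 genes called without WT 2 were still called.

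**Figure D5:**
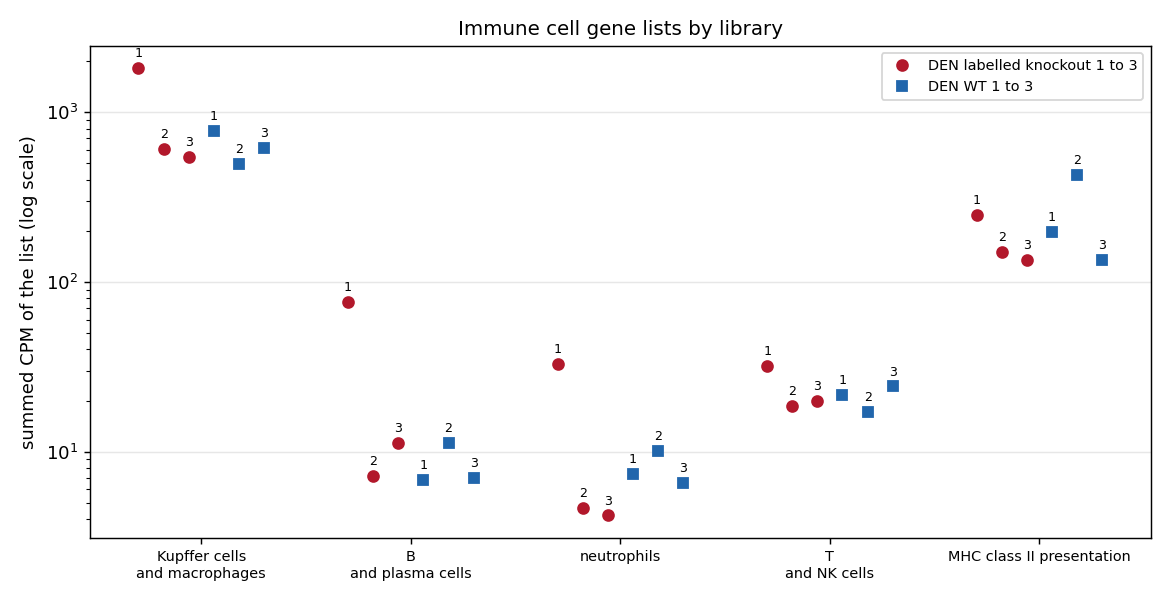
Summed CPM on a log axis of 5 immune gene lists, 1 point per liver, with labelled knockout 1 to 3 as circles left of WT 1 to 3 as squares. Labelled knockout 1 is highest for macrophages (1814 CPM), B and plasma cells (76.6 CPM), neutrophils (32.9 CPM) and T and NK cells (32.1 CPM). WT 2 is highest for MHC class II (428 CPM).

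Livers without DEN gave a second knockout and WT pair of 3 livers each, scaled here with all 12 libraries. For these livers no dose, age at injection or time after injection is recorded. Whether their age at collection matched that of the DEN livers is not known here, so DEN and age cannot be told apart. The heat-shock list summed to 3953, 4334 and 3805 CPM in DEN labelled knockout livers, against 7883, 6975 and 6487 CPM in DEN WT livers. Without DEN it summed to 4793, 4438 and 3265 CPM in labelled knockout livers, against 5700, 4688 and 4891 CPM in WT livers, where the groups overlapped. The ER list summed to 6463, 6754 and 6004 CPM in DEN labelled knockout livers, against 11526, 12717 and 9072 CPM in DEN WT livers. Without DEN it summed to 9382, 6910 and 7997 CPM in labelled knockout livers, against 9136, 8955 and 9418 CPM in WT livers, again with overlap.

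The heat-shock genes had a median log2 fold change of -0.23 without DEN, with 18 of 20 lower, and the ER genes one of -0.09, with 19 of 30 lower. Of the 32 genes that rose with DEN, 15 had a positive fold change without DEN, and of the 43 that fell and are in all 4 tables, 27 had a negative one. Over all genes tested in both comparisons, 52.6% had the same sign. Nfil3 averaged 14.2 ± 0.956 CPM in DEN labelled knockout and 40.1 ± 6.66 CPM in DEN WT livers, and 39.7 ± 14.0 CPM in labelled knockout and 48.4 ± 19.5 CPM in WT livers without DEN (SD, n = 3 each).

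The difference between the knockout effects with and without DEN was tested as an interaction over all 12 libraries. No gene of 12909 passed in edgeR (0.0%, smallest adjusted p 0.735), with 842 at an unadjusted p under 0.05, and DESeq2 called 13 (0.101%). The smallest p in each direction belonged to Tbcel (interaction 0.88 ± 0.17 on the log2 scale, edgeR adjusted p = 0.735) and to Cad, the enzyme that starts pyrimidine synthesis (-1.36 ± 0.26, edgeR adjusted p = 0.735). Cad had 11.2, 14.1 and 9.65 CPM in DEN labelled knockout livers, against 28.8, 30.5 and 23.4 CPM in DEN WT livers, and did not pass between these groups either (edgeR adjusted p = 0.0571 without WT 2).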

How the data were processed

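Per the file headers, each of the authors' 4 deposited tables (1 per group of 3 livers) gives a read count and a TPM per gene and library. The authors' deposited read counts are estimated counts per gene, since 6.75% to 7.39% of the DEN values are not whole, and they were rounded. The processing notes of the submitters name RSEM 1.3.1, Bowtie2 2.3.4.3, HISAT2 2.2.1 and DESeq2 1.4.5, and build GRCm38.p6. What each did, and whether counting used strand, is not given in the sources used here, so antisense and overlapping genes cannot be told apart. Every table is limited to mRNA genes at 0.01 TPM or more in its own 3 libraries, so a missing gene is not a measured 0. Of 13931 gene IDs, 13900 matched the RefSeq table of GRCm38.p6, the source of coordinates and promoters. Replicates of the DEN groups differed beyond counting noise (chi-square over degrees of freedom at least 28.8).

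Counts were scaled by TMM, filtered with filterByExpr by group and fitted in R 4.3.3 with edgeR 4.0.16 (glmQLFit, glmQLFTest, robust), with 6 libraries, or 5 without WT 2, and with 12 for the interaction. Adjusted p is Benjamini-Hochberg over all genes tested, threshold 0.05; standard errors are the log2 fold change over the root of F. DESeq2 1.42.0 and limma 3.58.1 served as alternatives, and the steps were tested on simulated data. Labels give separate mice, and 3 per group limit precision. The gene lists, members and named genes (a fixed set of markers, the 8 largest called changes in each direction or the 5 smallest p, and up to 4 genes per list) were chosen with earlier results of these data known. Genes named beyond this rule are called genes or list members chosen after their values were seen. Deviations from the group mean correlated at -0.0249, -0.148 and 0.146 between livers of the same replicate number. Between livers of different numbers the correlations lay between -0.211 and 0.149. WT 2 weighs heavily on the WT mean, so these values cannot show whether replicate numbers pair the livers. Values of a few single genes are not reported here.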

Additional observations from a re-analysis of the deposited data

How the results depend on the processing

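With all 6 libraries, 0 genes were called under RLE scaling, library size scaling, library sizes without the 20 most abundant genes, no filter, the CPM filter, all 12 libraries in 1 fit and limma-voom. There were 215 under DESeq2 and 214 under limma-voom with library quality weights, which gave WT 2 a weight of 0.0716. Leaving out 1 library gave 0 to 76. Without WT 2, the 76 calls became 669 under DESeq2, 219 under quality weights and 0 with both groups without DEN in the fit, and 0 to 188 with 1 further library left out. The cause of these differences between tools was not tested, apart from the fewer libraries. Under library size scaling 53.95% of 76 calls were higher, and with library sizes without the 20 most abundant genes 57.14% of 84, against 42.11% in the fit reported; 66 of the 76 were called under each. The interaction count was 13 under DESeq2 and 0 elsewhere, leave-one-out fits (0 to 0) included. With 1 of 6 libraries left out, the log2 fold change of Ank3 lay between -0.67 and 1.04 and that of Hmgcs1 between -0.77 and 0.90, both positive only without WT 2. The replicate block gave 0 calls with 6 libraries and 71 without WT 2, of which 31 were among the 76, and the livers share numbers only. The Otud3 difference in log2 CPM lay between -0.63 and -0.26 with 1 liver left out. The heat-shock median stayed between -1.03 and -0.74 without WT 2, and the ER median between -0.76 and -0.39, over the alternatives run. At a depth of at least 29674680 counts, genes near 1 CPM, such as Arntl and Birc5, rest on few reads.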

Other observations

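Genes listed in only 1 of the DEN tables could not be compared, and some of the highest of them stood out in 1 liver. Of 534 genes listed only for labelled knockout, the highest mean belonged to Cd209f, a lectin of tissue macrophages, at 20.99, 0.13 and 0.18 TPM in labelled knockout livers 1, 2 and 3. Next came Mogat1, an enzyme of triglyceride synthesis, at 4.01, 3.70 and 9.46 TPM, highest in labelled knockout 3. Cnmd, a cartilage protein gene, followed at 3.92, 5.22 and 4.89 TPM, with no liver apart. Lgr5, a Wnt target of pericentral hepatocytes, was listed only there, at 1.11, 1.69 and 1.38 TPM. Of 282 genes listed only for WT, the highest was Spink1, a trypsin inhibitor, at 1.14, 48.71 and 1.33 TPM in WT livers 1, 2 and 3. Inava and Noxa1, an activator of a superoxide-producing oxidase, followed the same pattern. They stood at 14.87 and 12.07 TPM in WT 2 and at most 0.06 TPM in WT 1 and 3.

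Single livers other than labelled knockout 1 and WT 2 stood apart for few genes. Labelled knockout 3 was more than 1 log2 unit above all other livers for 4 genes, among them Acot3, a peroxisomal thioesterase, at 18.1, 24.5 and 76.7 CPM in labelled knockout livers against 23.2, 2.68 and 26.3 CPM in WT livers. It was lowest for Socs2, a growth hormone target, at 13.6, 9.27 and 3.08 CPM in labelled knockout livers against 40.5, 13.7 and 15.9 CPM in WT livers. In WT 2 the tight junction gene Cldn15 stood far above the other livers, at 0.0647, 0.132 and 0.365 CPM in labelled knockout livers against 0.397, 233 and 0.901 CPM in WT livers. Mup22, a urinary protein gene of the male liver with near-identical copies, was far below the other livers there, at 97.8 CPM. These are values without a test.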
